A study of Homo sapiens and Homo sapiens
Mus musculus and Mus musculus with 200 samples.

Results

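The chromatin around 10 genes of the epithelial-to-mesenchymal transition was followed across human neural crest cells, transfected HEK293 cells, a lymphoblast line and mouse embryo tissue. The genes were the transcriptional repressors SNAI1, SNAI2, ZEB1 and ZEB2, the intermediate filament gene VIM, the mesenchymal cadherins CDH2, CDH6 and CDH11, and the epithelial adhesion genes CDH1 and EPCAM. Every accessible region of the H3K27ac count tables and every deposited peak within 100 kb of a GENCODE transcript start of 1 of these genes was taken, which gave 282 of 213151 regions (501 to 2550 bp wide). Of these, 231 lay near the 8 mesenchymal genes and 51 near the 2 epithelial genes. The gene is the nearest coding gene for 212 of the 282 regions; the others lie closer to a neighbour, and a region is named here by the member it was assigned to and its distance in kb from that gene's canonical start (positive is downstream in the direction of transcription).

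The series holds 200 chromatin immunoprecipitation samples, and 36 H3K27ac libraries and 70 peak lists were used here. The H9 embryonic stem cell line was differentiated in culture to human cranial neural crest cells (hCNCC), which carried no edit (WT), a dTAG degron on TWIST1 (TWIST1FV), ALX1 (ALX1FV), MSX1 (MSX1FNV) or PRRX1 (PRRX1FV), or the ALX1 degron with ALX4 knocked out (ALX1FV ALX4-). All 6 lines, WT included, were sampled in 2 replicates at 0, 3 and 24 h of dTAGV-1 at 500 nM, a compound that recruits a ubiquitin ligase to the tagged protein. Both TWIST1FV replicates carry the label of 1 clone, the WT libraries have no clone label, MSX1FNV has 1 joint clone label, and the 2 replicates of ALX1FV, PRRX1FV and ALX1FV ALX4- are different clones. Mouse O9-1 neural crest chromatin was added before immunoprecipitation in the TWIST1FV and WT lines as a spike-in and was not used for scaling here. HEK293 cells, a human embryonic kidney line, received plasmids for V5-tagged TWIST1, its loop and residue variants, NEUROD1 or an empty plasmid (pUC19), with or without ALX4 or another homeodomain protein, and were fixed 24 h later. TWIST1 was also precipitated from RS4;11, a lymphoblastic leukaemia line that is wild type in the labels, and from wild-type mouse embryos at E10.5: frontonasal (FNP), maxillary (Mx) and mandibular (Md) prominences, forelimb (FL) and hindlimb (HL) buds, with 1 library each.

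In this transition, epithelial cells give up E-cadherin junctions, take on vimentin and other cadherins, and become motile. It accompanies the departure of neural crest cells from the neural tube. SNAI1 and SNAI2 are zinc finger repressors and ZEB1 and ZEB2 are zinc finger and homeodomain repressors; all 4 are known for repressing CDH1 through CACCTG-type E-boxes. TWIST1 is a basic helix-loop-helix factor that binds other E-boxes, such as CAGATG, as a dimer. H3K27ac is a histone mark of active promoters and enhancers.

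TWIST1 sites were defined as peaks of the first WT library at 0 h that overlapped a peak of the second. The reference set held 42318 such peaks, of which 80 lay near the 10 genes, 71 near the mesenchymal and 9 near the epithelial ones. The sites that the results below turn on are shown from 50 bases before to 50 bases after the peak summit, on the plus strand of hg38, 5′ to 3′. For ZEB1 -76.0 kb, SNAI1 and ZEB2 the strongest site of the gene in both WT libraries is shown, and the ZEB1 +61.1 kb site was added after its values were seen. Capitals mark the E-boxes CAGATG or CAGCTG (read on either strand) and the homeodomain core TAATTA.
SNAI1 +72.2 kb, chr20:50055099-50055199: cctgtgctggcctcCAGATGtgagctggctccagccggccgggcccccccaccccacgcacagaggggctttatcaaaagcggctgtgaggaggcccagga
ZEB1 -76.0 kb, chr10:31243123-31243223: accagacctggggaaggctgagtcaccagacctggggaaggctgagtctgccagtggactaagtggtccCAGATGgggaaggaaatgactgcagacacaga
ZEB1 +61.1 kb, chr10:31380288-31380388: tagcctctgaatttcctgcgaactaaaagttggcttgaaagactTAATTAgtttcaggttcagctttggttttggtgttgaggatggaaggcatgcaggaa
ZEB2 -61.0 kb, chr2:144581065-144581165: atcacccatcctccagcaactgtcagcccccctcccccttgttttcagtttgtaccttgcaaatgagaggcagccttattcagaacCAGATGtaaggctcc

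The SNAI1 site lies between genes, nearest to a UBE2V1 start. It had a -log10 q of 1070 and 1050 in the 2 WT libraries, higher than 99.92% of the reference set. The ZEB2 site lies between genes upstream of ZEB2 and had 158 and 125. The ZEB1 site at -76.0 kb lies between genes and had 232 and 156, and the site at +61.1 kb, in a ZEB1 intron, had 75.9 and 69.6. The last is the only one of these 4 whose 201-base window held no E-box.

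Sites of the structural and epithelial genes follow in the same format, with CATCTG marked as the reverse complement of CAGATG. VIM +47.4 kb, CDH11 -0.426 kb and CDH1 +52.4 kb are the strongest sites of their genes in the first WT library. In the second, CDH11 -0.426 kb was again the strongest, while VIM -7.27 kb (60.3) and CDH1 +55.3 kb (89.4) led their genes. CDH1 +55.3 kb and CDH1 -94.3 kb were added after their values were seen.
VIM +47.4 kb, chr10:17275609-17275709: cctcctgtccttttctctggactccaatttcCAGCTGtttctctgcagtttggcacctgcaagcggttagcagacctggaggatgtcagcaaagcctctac
CDH11 -0.426 kb, chr16:65122439-65122539: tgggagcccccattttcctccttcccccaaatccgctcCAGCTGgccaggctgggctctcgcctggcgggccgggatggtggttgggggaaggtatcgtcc
CDH1 +52.4 kb, chr16:68789654-68789754: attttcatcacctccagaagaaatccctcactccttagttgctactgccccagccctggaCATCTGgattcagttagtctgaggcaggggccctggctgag
CDH1 +55.3 kb, chr16:68792510-68792610: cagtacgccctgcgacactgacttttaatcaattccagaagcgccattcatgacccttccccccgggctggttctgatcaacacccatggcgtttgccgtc
CDH1 -94.3 kb, chr16:68642974-68643074: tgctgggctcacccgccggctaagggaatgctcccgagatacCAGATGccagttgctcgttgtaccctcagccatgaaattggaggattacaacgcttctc

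VIM +47.4 kb lies between genes (-log10 q 79.5 and 21.9). CDH11 -0.426 kb lies in an intron of a longer CDH11 transcript (106 and 140). CDH1 +52.4 kb (113 and 49.1) and CDH1 +55.3 kb (109 and 89.4) lie in CDH1 introns, and the second holds none of the searched letters near its summit. CDH1 -94.3 kb (39.8 and 24.1) lies in an intron of CDH3, the P-cadherin gene upstream of CDH1. The strongest sites of the other genes in the first library were SNAI2 -0.33 kb (338 and 217), CDH6 +201 kb (63.0 and 43.2), CDH2 +1.42 kb (50.7 and 32.7) and EPCAM -17.0 kb (12.7 and 8.74); in the second, CDH2 +104 kb (44.5 and 53.3) was stronger than CDH2 +1.42 kb.

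Over all 80 sites, an E-box (CAGATG or CATATG or CAGCTG, on both strands of the 201 bases) was present at 70.0%, against 67.5% of the reference set. A homeodomain core (TAATTA, and TAATTG on both strands) was present at 17.5% of the sites and 25.3% of the reference set: 4 of the 9 ZEB1 sites held one and none of the 9 epithelial sites did. The composite of an E-box and a homeodomain core 4 bp apart was found at 0 of 80 sites and at 2.71% of the reference set. CACCTG, the box that Snail and ZEB proteins read, was found at 20.0% and 17.8%. The double E-box with a 5-bp gap was found at 1 site, CDH1 -18.5 kb. These are matches of letters, not measured contacts.

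The window of SNAI1, a repressor known for initiating the transition, held the most TWIST1 sites of the 10 genes in hCNCC. SNAI1 had 19 in its window, and 99.3% of 19962 coding genes had fewer (the median gene had 3). ZEB2, a repressor of the same epithelial targets, had 15 (98.2% of genes had fewer), the mesenchymal cadherin CDH11 11 (94.3%) and ZEB1 9 (89.6%). CDH1 had 7 (81.3%), VIM 5 (65.1%), SNAI2, CDH2 and CDH6 4 each (53.1%) and EPCAM 2 (24.6%). Genes with many annotated starts have wider windows (46 starts for ZEB2 and 21 for ZEB1 against 1 for SNAI1), so counts are not per kb. The member was the nearest coding gene for 60 of the 80 sites. In the SNAI1 window, the sites from -95.4 to -44.6 kb lie nearest to SLC9A8 or RNF114. Those from +70.3 to +88.4 kb lie nearest to UBE2V1. The TWIST1 sites were shared with AP2a, a neural crest transcription factor precipitated with 2 antibodies, at 37.5% of the 80 sites (Wilson 95% interval 27.7 to 48.5) and at 25.9% of the reference set. The SNAI1 window held 13 of these 30 sites (68.4% of its 19), and the windows of the other 9 genes had 27.9% of 61.

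TWIST1 peaks at the starts themselves separated the genes more sharply. In the WT hCNCC reference set, 7 of the 10 canonical starts had a peak within 1 kb, against 20.2% of coding starts (4037 of 19962). SNAI2 (hg38, canonical start at 48921429 on chromosome 8, minus strand) carried the strongest start peak, with a -log10 q of 338.5 and 217.1 in the 2 WT libraries. CDH11 (65122063 on chromosome 16) followed with 106.5 and 140.1, then CDH2 (28177130 on chromosome 18) with 50.7 and 32.7 and ZEB2 (144520119 on chromosome 2) with 43.0 and 44.3. SNAI1 (49982980 on chromosome 20) had 11.8 and 12.6, and ZEB1 (31319216 on chromosome 10) had 1.6 and 3.1. The 2 starts without a peak in any hCNCC TWIST1 list were those of CDH1 (68737292 on chromosome 16) and EPCAM (47369311 on chromosome 2).

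**Figure D1:**
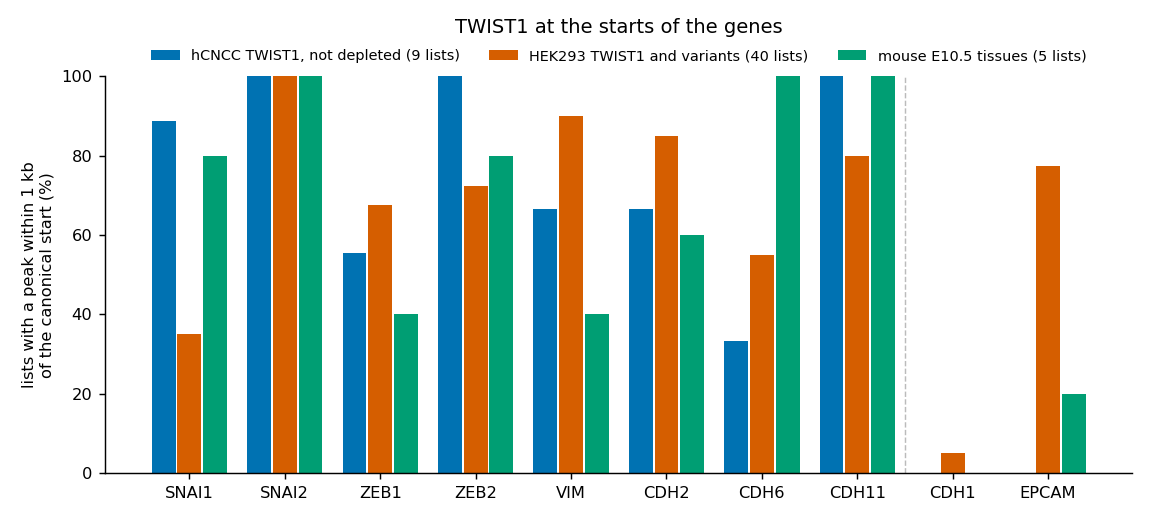
Share of peak lists (y axis, percent) with a TWIST1 or V5-TWIST1 peak within 1 kb of each gene's canonical start, for 9 hCNCC TWIST1 lists, 40 HEK293 lists and 5 mouse lists. SNAI2 is at 9 of 9, 40 of 40 and 5 of 5, CDH1 is at 0 of 9, 2 of 40 and 0 of 5, and EPCAM is at 0 of 9 in hCNCC and 31 of 40 in HEK293.

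The start of EPCAM, an epithelial adhesion molecule, differed between cell types. It had a peak in 31 of 40 HEK293 lists, in 1 of 5 mouse lists (HL) and in no hCNCC TWIST1 list. Start peaks were more common in HEK293 as a whole (33 to 58% of coding starts in the 3 lists of wild-type TWIST1 alone, against 20.2% in the hCNCC reference set). The start of CDH1 stayed without one almost everywhere: 2 of 40 HEK293 lists had a peak, with TWIST1(TAL1loop) and ALX4 (-log10 q 7.4) and with TWIST1(TAL1ins) (2.0). SNAI2 had a start peak in 9 of 9 hCNCC, 40 of 40 HEK293 and 5 of 5 mouse lists, and CDH11 in 9, 32 and 5. CDH6 had a start peak in 5 of 5 mouse tissues at -log10 q of 34.8 to 115.7. It had one in 22 of 40 HEK293 lists, and in 3 of 9 hCNCC lists at 2.8 to 6.8. The lists share a cell system and differ in depth, so these shares are descriptions without a test.

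RS4;11 had 70826 peaks, of which 68 lay near the 10 genes: SNAI1 19, ZEB2 16, EPCAM 10, CDH1 9, CDH11 5, CDH6 3, SNAI2, VIM and CDH2 2 each, and ZEB1 0. In this list 59.7% of coding starts had a peak and 5 of the 10 members did (SNAI1, SNAI2, ZEB2, VIM and CDH11), so a start peak there does not set the members apart. The starts of SNAI1 and SNAI2 were strong (-log10 q 219.8 and 237.0), and SNAI1 exceeded its own hCNCC values. The median coding gene had 9 peaks in this list. SNAI1 had more than 83.1% of genes, EPCAM more than 53.5% and CDH1 more than 48.8%, and ZEB1, with 9 sites in hCNCC, had fewer than any other member. Of the 68 peaks, 19 overlapped a peak of a further hCNCC TWIST1 list, made with an Abcam antibody (58395 peaks). This was 27.94% (Wilson 95% interval 18.68 to 39.56), and 16.7% of the whole RS4;11 list overlapped a peak of that hCNCC list. RS4;11 is 1 library, and so is that hCNCC list, so there is no replicate check.

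**Figure D2:**
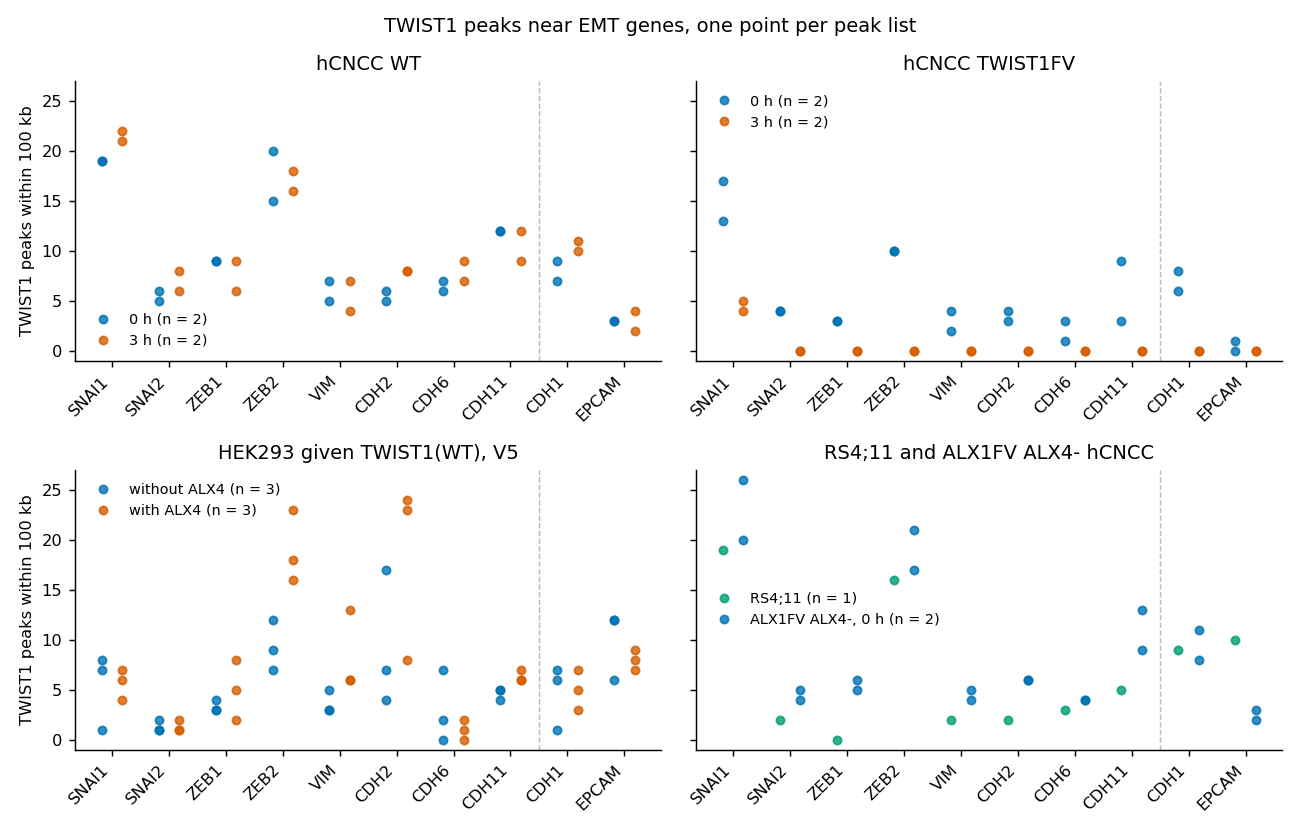
Number of peaks within 100 kb of a transcript start (y axis) for each gene (x axis), 1 point per peak list, in WT and TWIST1FV hCNCC at 0 and 3 h, in HEK293 with TWIST1(WT) alone or with ALX4, and in RS4;11 and ALX1FV ALX4- hCNCC at 0 h. The dashed line separates the epithelial genes, and only SNAI1 keeps peaks in TWIST1FV at 3 h.

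In HEK293 the wild-type TWIST1 plasmid gave 55, 35 and 74 peaks near the 10 genes, and with ALX4 57, 79 and 98. The means were 54.67 ± 19.5 and 78.0 ± 20.5 (SD, n = 3 each), and the groups overlapped (p = 0.2, exact two-sided permutation test; 3 against 3 allows no p under 0.1). Restricted to the top 10000 peaks by strength, means were 18.33 ± 0.577 and 20.33 ± 2.08. The 3 lists without ALX4 held 30471, 22465 and 56014 peaks in all, and those with it 29430, 41369 and 65005. Per 10000 peaks of a list, 18.05, 15.58 and 13.21 lay near the genes without ALX4, and 19.37, 19.10 and 15.08 with it. Of all coding starts, 44.6%, 33% and 58% had a peak in the 3 lists without ALX4, and of the 10 member starts 9, 6 and 9 had one. The empty plasmid gave 0 peaks near the genes, NEUROD1 5 and NEUROD1 with ALX4 4. A separate pair of libraries with pCAG plasmids gave 83 peaks near the genes without ALX4 (of 50196) and 150 with it (of 64536). CDH2 went from 16 to 51, ZEB2 from 14 to 33 and ZEB1 from 5 to 19, while EPCAM went from 12 to 6, SNAI1 from 6 to 2 and CDH1 from 5 to 3. These are 1 library each. In the replicated lists above, SNAI1 had 7, 1 and 8 peaks without ALX4 and 4, 6 and 7 with it. CDH1 had 6, 1 and 7, then 3, 5 and 7, and EPCAM 12, 6 and 12, then 9, 7 and 8. CDH2 had 4, 7 and 17, then 8, 23 and 24. ZEB2 had 12, 7 and 9, then 16, 18 and 23, and ZEB1 3, 3 and 4, then 2, 5 and 8. A pcDNA3.1 pair precipitated with the TWIST1 antibody gave 27 peaks near the genes without ALX4 (of 15395) and 24 with it (of 12505).

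In mouse embryos Snai1 had 18 peaks in FNP, 9 in Mx, 7 in Md, 20 in FL and 19 in HL, more than 92.4 to 98.8% of coding genes. Cdh2, the N-cadherin gene, had 9, 5, 6, 15 and 12, more than 81.7 to 96.2% of genes. Cdh1 had 10, 3, 7, 11 and 11 peaks within 100 kb in the same tissues, more than 73.2 to 92.4% of genes, and none at its start. It had as many as Snai1 in Md, and more than Cdh2 in FNP and Md. The 5 lists differ in length (17938 to 46082 peaks) and each is 1 library.

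Few TWIST1 peaks were left near the genes in TWIST1FV after 3 h of dTAGV-1. TWIST1FV had 61 and 47 peaks near them at 0 h (of 33479 and 25034 in the lists) and 5 and 4 at 3 h (of 835 and 739). WT had 98 and 86 before the drug, and 100 and 97 after 3 h of it. The share of the 0 h peaks overlapped at 3 h was 8.354% ± 0.222 (SD, n = 2) in TWIST1FV and 84.28% ± 0.856 in WT; the groups did not overlap, and 2 against 2 cannot give an exact permutation p under 0.3333. All peaks that remained were at SNAI1, at -44.6, +6.81, +11.4, +70.3 and +72.2 kb. The share kept over the whole list was 2.449% and 2.936%.

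TWIST1FV at 0 h had fewer peaks near the genes than WT in lists that were shorter as a whole, and both of its replicates covered 51.2% of the 80 sites (49.7% of the reference set). In ALX1FV ALX4- the TWIST1 lists held 97 and 82 peaks near the genes, 89.5 ± 10.6 against 92.0 ± 8.49 in WT (SD, n = 2 each). An exact permutation test of these peak numbers gave p = 0.6667 (0.3333 is the smallest possible). The WT peaks were found in the ALX1FV ALX4- lists at 72.45% and 76.16%, and in the other WT replicate at 81.63% and 90.7%. These shares were not tested. The start of SNAI2 had a -log10 q of 481.3 and 469.1 in ALX1FV ALX4-, above both WT values, and that of CDH2 had 5.8 and no peak, below both. V5 precipitation of tagged ALX1 gave few peaks in all (376 to 1389), and those near the genes (3 and 0 in ALX1FV, 3 and 3 in ALX1FV ALX4-) were all at SNAI1. No V5 peak of MSX1FNV or PRRX1FV lay near a member, in lists of 1 to 278 peaks.

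H3K27ac at the start lay above the median of coding starts for 6 of the 8 mesenchymal genes and below it for CDH2, CDH6 and both epithelial genes in hCNCC before any treatment. Levels per kb of accessible region, in counts scaled to library size (CPM), averaged over the 12 libraries at 0 h, were 75.7 at CDH11, 63.5 at SNAI2 and 53.5 at VIM, above 98.0%, 96.4% and 93.5% of 15783 coding starts. ZEB1 (25.1), ZEB2 (23.1) and SNAI1 (18.7) lay above the median start of 12.9. The neural and mesenchymal cadherin CDH2 had 8.16 and CDH6, another cadherin, had 1.6, above only 40.2% and 18.6% of coding starts. EPCAM (0.601) and CDH1 (0.596) lay below all but 4.82% and 4.68% of coding starts. Neighbours in this order overlapped in their library ranges, except VIM with ZEB1 (lowest VIM library 42.9, highest ZEB1 library 30.5) and CDH2 with CDH6 (3.43 against 3.19). The CDH6 libraries reached down to 0.249, within the ranges of EPCAM and CDH1.

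**Figure D3:**
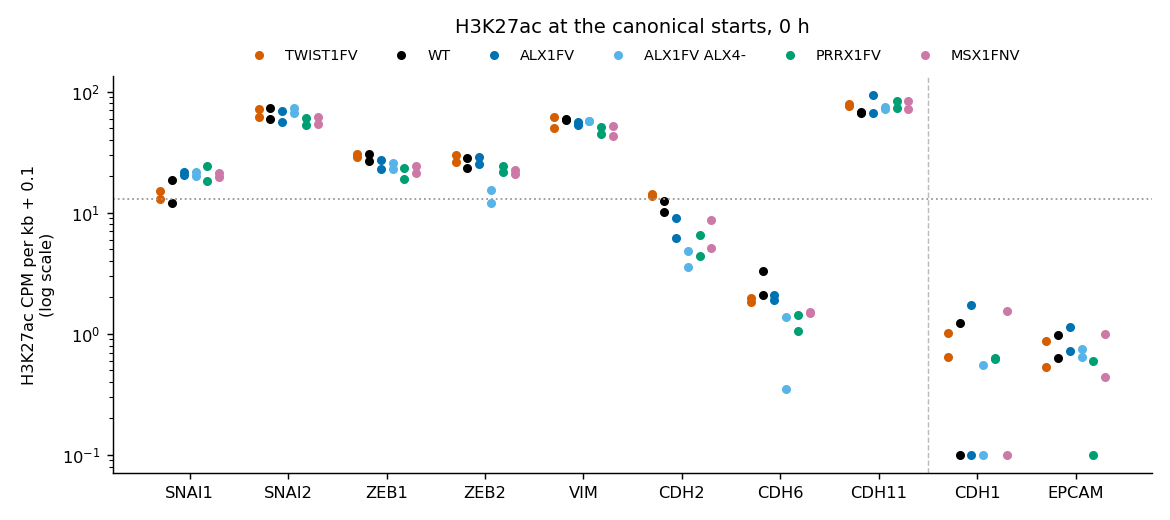
H3K27ac at the canonical start of each gene at 0 h in CPM per kb plus 0.1 (log axis), 1 point per library, grouped by line. The dotted line is the median of coding starts, 12.9; EPCAM and CDH1 are near the bottom in all 6 lines, and CDH2 varies between lines.

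Depletion of TWIST1 changed H3K27ac at few of these regions, in both directions. Of the 282 regions, 219 passed the filter on low counts in TWIST1FV. At 3 h 12 of them were called at an adjusted p under 0.05 (edgeR), 7 higher and 5 lower; over all regions 5.29% were called (1.01% higher and 4.28% lower). At 24 h 25 were called, 14 higher and 11 lower, against 13.8% of all regions (4.28% higher and 9.49% lower). The mesenchymal genes had 4 higher and 4 lower at 3 h and 9 and 10 at 24 h, of 186 tested, and the epithelial genes 3 and 1 and then 5 and 1, of 33 tested. All 3 higher calls of the epithelial genes at 3 h, and 3 of the 5 at 24 h, lie at or beside the start of CDH3 in the CDH1 window. The 76 regions that carried a TWIST1 site had a median log2 change of -0.50 at 24 h, and all bound regions of the table had -0.73; the 143 without a site had a median of 0.33, against 0.23. All 5 regions that fell at 3 h, and 9 of the 11 that fell at 24 h, carried a TWIST1 site; of all regions that fell, 94.9% and 92.1% did. Leaving out 1 library at a time left 3 (without 0 h replicate 1), 4 (without 0 h replicate 2), 6 and 7 calls at 3 h. At 24 h it left 12 without either replicate 2 library, 15 without 0 h replicate 1 and 19 without 24 h replicate 1. With library size as the only scaling the median of all regions moved from 0.02 to 0.111 at 3 h and from 0.033 to 0.158 at 24 h, and the 24 h calls became 20 higher and 9 lower.

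**Figure D4:**
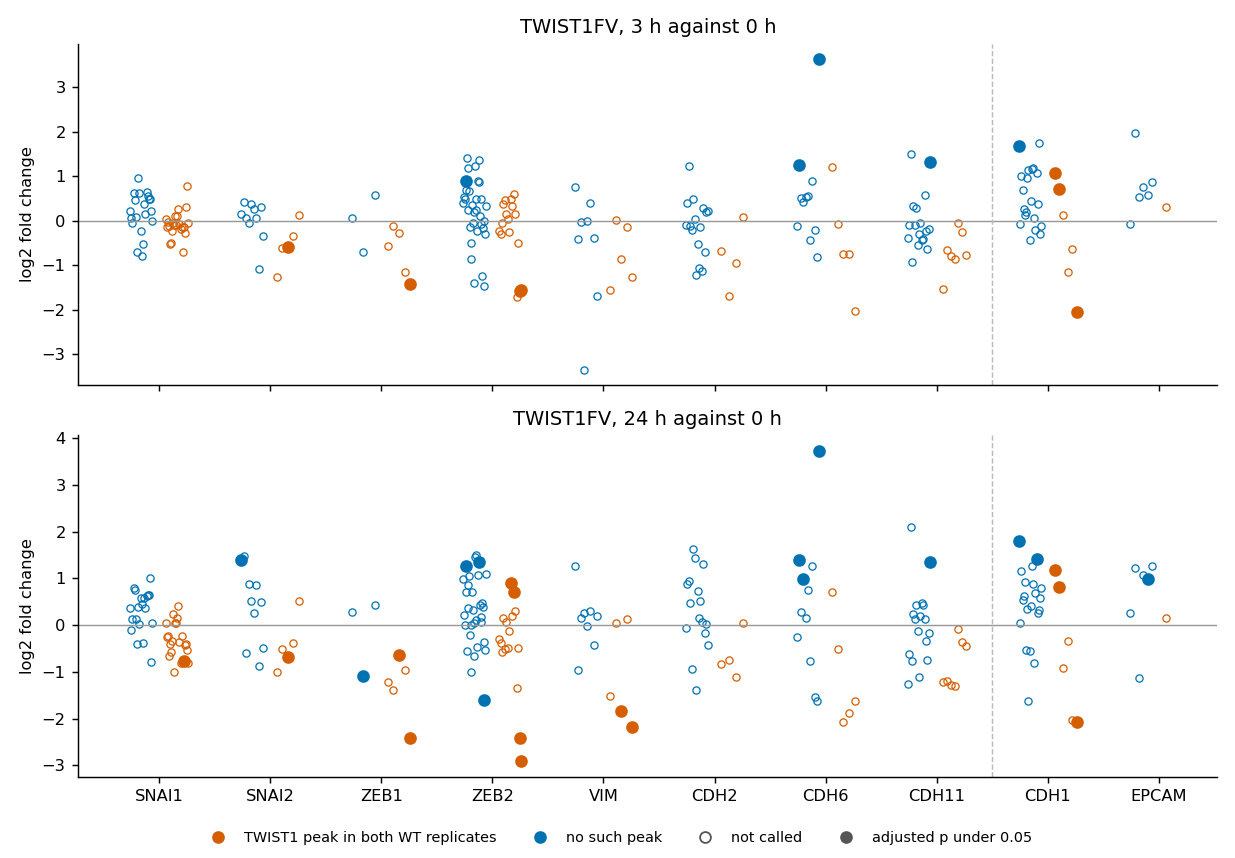
Log2 fold change of H3K27ac in TWIST1FV at 3 and 24 h against 0 h (y axis) for every tested region by gene (x axis); orange regions carry a TWIST1 site, blue ones do not, and filled points were called. The called falls are at SNAI1, SNAI2, ZEB1, ZEB2, VIM and CDH1, and none of the 20 CDH2 regions was called.

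The same drug gave 0 called member regions in the unedited line with edgeR and with DESeq2. In WT 0% of all regions were called at 3 h and at 24 h (4138 and 4323 regions had an unadjusted p under 0.05). The difference of the TWIST1FV and WT responses was tested directly: it was called at 7 of 243 member regions at 3 h (2 more positive and 5 more negative in TWIST1FV) and at 15 at 24 h (8 and 7), against 2.78% and 7.34% of all regions.

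ZEB2 fell at a group of regions far upstream. The region at -61.0 kb, at the site printed above, had log2 CPM of 6.00 and 5.60 at 0 h, 4.56 and 3.96 at 3 h, and 3.60 and 3.23 at 24 h in TWIST1FV. In WT it had 6.01 and 5.63, 5.96 and 5.84, and 5.84 and 5.95. All 4 treated TWIST1FV libraries lay below every 0 h and every WT library. The log2 change was -1.57 ± 0.25 (SE; adjusted p = 0.00122) at 3 h and -2.41 ± 0.26 (8.34e-06) at 24 h, and the difference from WT was -1.66 ± 0.28 (0.00029) and -2.47 ± 0.28 (1.83e-07). The neighbouring region at -61.8 kb (144581624 to 144582124 on chromosome 2) changed by -2.91 ± 0.32 at 24 h (7.87e-06), the largest fall of a member region at that time, and that at -62.9 kb, without a site, by -1.61 ± 0.43 (0.0167).

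Other ZEB2 regions rose. The region at +170 kb (144349539 to 144350914 on chromosome 2), between genes and nearest to the GTDC1 start, went from 4.46 and 4.55 to 5.29 and 5.58 at 3 h and 5.47 and 6.02 at 24 h. In WT it stayed between 4.60 and 4.91 at all times. The change was 0.90 ± 0.21 (adjusted p = 0.0172) and 1.27 ± 0.21 (0.000436); the 3 h call was lost without 3 of the 4 libraries in turn (either 0 h library, or the second 3 h library). In the first ZEB2 introns, +10.2 kb rose by 1.35 ± 0.25 at 24 h (0.00133), +9.35 kb by 0.90 ± 0.19 and, upstream, -3.29 kb by 0.70 ± 0.22 (0.0448). Its most acetylated start region, +2.98 kb, went from 4.96 and 5.21 to 5.14 and 5.15 (0.06 ± 0.21, 0.909). The gene had 4 higher and 3 lower calls of 48 regions tested at 24 h, against 4.28% higher and 9.49% lower over all regions.

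Over all regions 13.8% were called at 24 h (9.49% lower), and at ZEB1 3 of its 8 regions were called, all lower. The intronic region at +61.1 kb had 3.07 and 3.36 log2 CPM at 0 h, 1.87 and 1.96 at 3 h and 1.07 and 0.87 at 24 h in TWIST1FV, and 2.68 to 3.26 over all WT libraries. The treated libraries lay below every untreated and WT library. The change was -1.42 ± 0.37 at 3 h (adjusted p = 0.0342, lost without any 1 of the 4 libraries) and -2.41 ± 0.4 at 24 h (0.000465, called in each left-out fit), with a difference from WT of -2.45 ± 0.5 at 24 h (0.000984). The region at the start of ZEB1 (+0.621 kb) fell by 0.64 on the log2 scale at 24 h, from 6.34 and 6.44 to 5.71 and 5.80 (0.0115); this call was lost without any 1 library, at adjusted p of 0.0554 to 0.0977, and the difference from WT had an adjusted p of 0.098.

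The start of SNAI2 fell as well. Its region had 6.33 and 6.49 log2 CPM at 0 h, 5.86 and 5.90 at 3 h and 5.75 and 5.70 at 24 h in TWIST1FV, and 6.22 to 6.63 in WT at all times, so treated libraries lay below all others. The changes were -0.59 ± 0.16 (adjusted p = 0.0402) and -0.69 ± 0.16 (0.00646), and the differences from WT -0.77 ± 0.2 (0.0246) and -0.85 ± 0.2 (0.0048). The 3 h call was lost with each left-out library (0.102 to 0.218), and the 24 h call without 0 h replicate 2 or 24 h replicate 2 (up to 0.0889). A weak region at +58.1 kb rose by 1.39 ± 0.45 at 24 h (0.0472), also lost without any 1 library.

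SNAI1 had few called regions although it had the most sites. Of its 42 regions, all tested, 0 were called at 3 h and 1 at 24 h, against 5.29% and 13.8% of all regions. That one, +72.2 kb, at the strongest site, had 4.94 and 5.03 at 0 h, 5.01 and 4.79 at 3 h and 4.36 and 4.10 at 24 h, a change of -0.76 ± 0.22 (adjusted p = 0.0269); the difference from WT had an adjusted p of 0.0897, and the call was lost without either 0 h library or the second 24 h library (up to 0.204). Some other SNAI1 regions with a TWIST1 site had falls of similar or larger size at 24 h without being called. The region at the site at -3.7 kb, nearest to SNAI1 itself, had a log2 change of -1.001 (adjusted p = 0.05977). Others were those at the sites at +32.2 kb (log2 change -0.82, adjusted p = 0.0793), +70.3 kb (-0.74, 0.0986) and -93.5 kb (-0.65, 0.0623). Regions at other sites stayed level, such as +6.81 kb (0.05, 0.89) and -95.4 kb (0.04, 0.927). The start region of SNAI1 was 4.43 and 4.60 at 0 h and 4.68 and 4.44 at 24 h (log2 change 0.05, 0.921).

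Of the structural genes, VIM, which encodes vimentin, had less H3K27ac at distal regions after TWIST1 depletion, and no change at its start was called. The region at +47.4 kb fell from 2.12 and 2.03 to 0.25 and 0.07 at 24 h, -2.19 ± 0.51 (adjusted p = 0.00742), on counts of 28 and 32 down to 8 and 6, with a difference from WT of -2.09 ± 0.64 (0.0382). The region at -7.03 kb fell from 1.67 and 2.61 to 0.50 and 0.65, -1.84 ± 0.49 (0.0175), a call lost without 0 h replicate 2 or either 24 h library (up to 0.256). The VIM start went from 6.56 and 6.85 to 6.48 and 6.91 at 24 h, a change of -0.01 ± 0.18 (0.979).

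**Figure D5:**
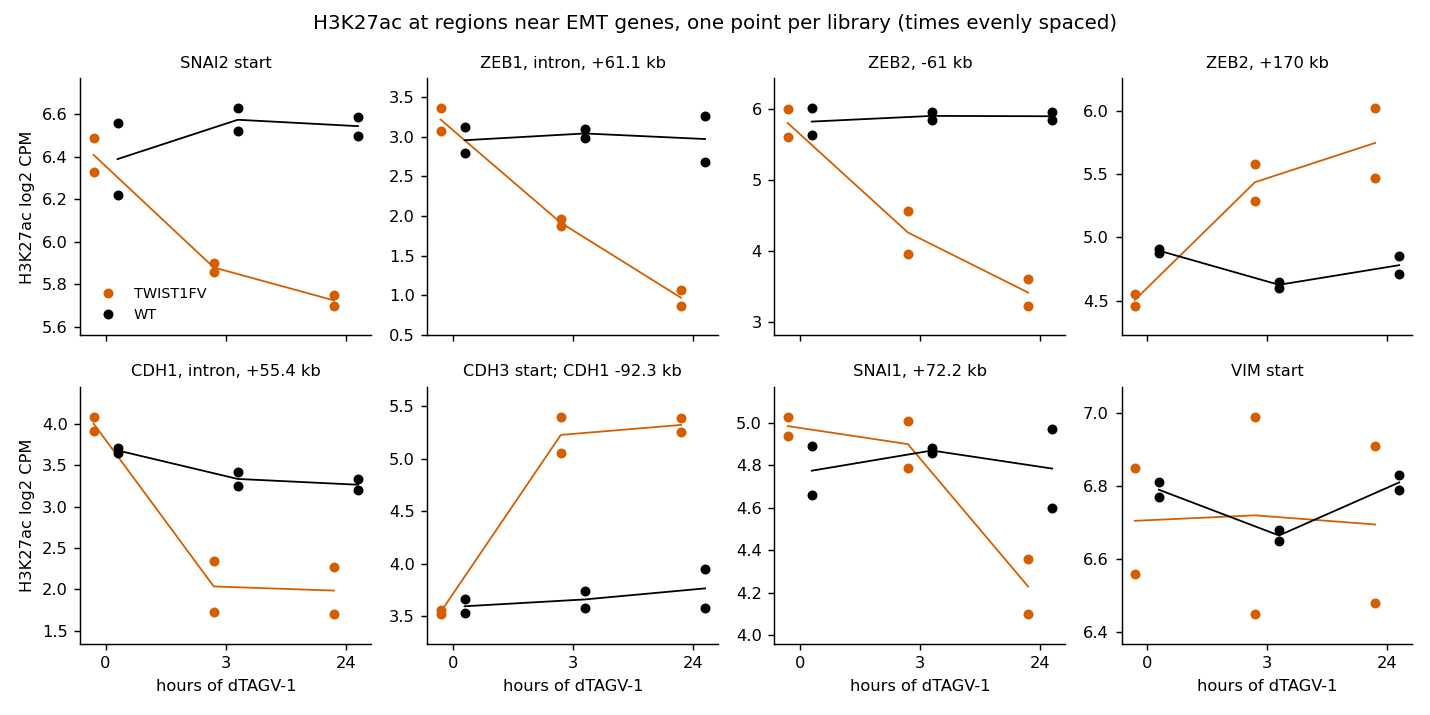
H3K27ac as log2 CPM (y axis) at 0, 3 and 24 h (x axis, evenly spaced) in TWIST1FV and WT, 1 point per library with lines through the means, at 8 regions. ZEB2 -61.0 kb, ZEB1 +61.1 kb and CDH1 +55.4 kb fall in TWIST1FV, ZEB2 +170 kb and the CDH3 start rise there, each with a called difference from WT at 24 h, and the VIM start stays level.

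Among the mesenchymal cadherins, no region of CDH2 was called in the TWIST1FV time course. Of its 32 regions 20 were tested and 0 called, against 5.29% of all regions at 3 h and 13.8% at 24 h. The CDH2 start went from 4.85 and 4.84 to 4.71 and 5.03 at 24 h (log2 change 0.03 ± 0.21, adjusted p = 0.946). An intronic CDH2 region with a TWIST1 site at +103 kb differed from WT at 3 h (-2.2, adjusted p = 0.0392) on 24 and 52 counts at 0 h and 16 and 6 at 3 h. CDH11 had 1 call of 24: a distal region at -98.0 kb (65219806 to 65220306 on chromosome 16) rose from 2.74 and 2.89 to 4.25 and 4.04 at 24 h, 1.36 ± 0.28 (0.00298), without a called difference from WT. The CDH11 start went from 7.63 and 7.53 to 7.27 and 7.16 (-0.36 ± 0.12, 0.065); it was called lower at 24 h in the joint fit of 36 libraries (-0.37, 0.0377) and with the replicate block (0.00147), and at 3 h with the block (-0.25, 0.0469). CDH6 had 3 regions higher of 16 at 24 h, led by -60.2 kb, from 2.17 and 2.26 to 3.30 and 3.79 (1.39 ± 0.33, 0.00844), a call lost without either 0 h library or 24 h replicate 2 (up to 0.097). WT had 3.21 to 3.63 there at all times, so the treated libraries reached the WT range. The CDH6 start went from 1.60 and 2.11 to 2.76 and 2.42 (0.76 ± 0.41, 0.271).

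Regions in the CDH1 window moved in both directions. The intronic region at +55.4 kb (68792286 to 68793168 on chromosome 16), at the site printed above, fell from 3.92 and 4.09 log2 CPM to 2.34 and 1.73 at 3 h and 1.70 and 2.27 at 24 h. WT had 3.20 to 3.71 over its 6 libraries, above all treated TWIST1FV libraries. The change was -2.05 ± 0.36 (adjusted p = 0.00249) at 3 h and -2.08 ± 0.36 (0.00065) at 24 h, and the difference from WT -1.71 ± 0.42 (0.0161) and -1.67 ± 0.42 (0.00852).

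The start of CDH3, which encodes P-cadherin and lies within the CDH1 window at -92.3 kb, rose. This region (68644702 to 68645202) had 3.56 and 3.52 at 0 h, 5.40 and 5.05 at 3 h and 5.39 and 5.25 at 24 h in TWIST1FV, and 3.53 to 3.95 in WT. All treated libraries lay above all others. The change was 1.68 ± 0.22 (adjusted p = 0.000272) and 1.81 ± 0.22 (2.89e-05), and the difference from WT 1.6 ± 0.31 (0.00186) and 1.61 ± 0.31 (0.000577). Both neighbours with a TWIST1 site were called higher too, -91.2 kb by 0.82 ± 0.17 (0.00296) and -94.5 kb by 1.18 ± 0.27 (0.00695) at 24 h, so bound regions fell at CDH1 +55.4 kb and rose at CDH3. A transcript start inside CDH1 (+74.7 kb) rose from 1.01 and 1.41 to 2.47 and 2.61 (1.41 ± 0.45, 0.0438), and the start of an upstream EPCAM transcript (-23.9 kb) from 2.86 and 2.69 to 3.80 and 3.67 (0.99 ± 0.3, 0.0376). Both calls were lost without any 1 library (up to 0.232 and 0.215) and with DESeq2 (0.096 and 0.055). WT at the EPCAM region had 1.45 and 2.72 at 0 h, so its libraries spread as widely as that change.

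Other genes of the 2 programmes were counted in the same window. Other mesenchymal genes (among them FN1, SPARC and TGFBI) had 0 regions higher and 24 lower of 344 tested at 3 h and 3 and 45 at 24 h, with median log2 changes of -0.10 and -0.16. Other epithelial genes (claudins, keratins, GRHL2 and others) had 7 and 2 of 283 at 3 h and 7 and 9 at 24 h, with medians of 0.21 and 0.15. Other cadherin genes had 4 and 6 of 179, then 6 and 13. This list includes CDH3, so regions around the CDH3 start are counted here and in the CDH1 window. Over all regions 1.01% were called higher and 4.28% lower at 3 h, and 4.28% and 9.49% at 24 h. The medians over the 10 genes were -0.02 and 0.06, and those over all regions 0.02 and 0.03.

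The other degron lines gave almost no calls over time. The share of all regions called was 0% at 3 and 24 h in ALX1FV, 0% and 0.0279% in ALX1FV ALX4-, 0.00179% and 0.00448% in MSX1FNV, and 0% and 0.000827% in PRRX1FV. Where it was 0%, the regions with an unadjusted p under 0.05 were 1780 and 2032 in ALX1FV, 5579 in ALX1FV ALX4- at 3 h and 4727 in PRRX1FV at 3 h. No member region was called with edgeR or DESeq2 in any of these 8 comparisons. With the clone as a block, 1 was called in ALX1FV ALX4- at 24 h: an intronic CDH11 region at +128 kb went from 1.94 and 2.82 to 0.27 and 0.49, -2.29 ± 0.48 (adjusted p = 0.0202).

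The lines differed from WT before treatment, and there line, clone, culture and the spike-in of TWIST1FV and WT cannot be told apart from genotype. TWIST1FV had 0 called members with edgeR and with DESeq2 (0.106% of all regions with edgeR) and ALX1FV 2 of 227 (0.527%). ALX1FV ALX4- had 30 called, 9 higher and 21 lower (10.3%), MSX1FNV 6 (1 and 5, 3.33%) and PRRX1FV 12 (0 and 12, 3.32%). Scaled by library size alone, which moved the median of all regions to 0.184, 0.142 and 0.167, the splits became 17 and 12, 3 and 2, and 4 and 5. Leaving out 1 library left 15 to 17 calls in ALX1FV ALX4-, 1 to 5 in MSX1FNV, 1 to 4 in PRRX1FV and 0 to 2 in ALX1FV. The count fell by over 1.5 times without any single library of ALX1FV ALX4- or PRRX1FV, without MSX1FNV replicate 2, without ALX1FV replicate 1 and, in all 4 comparisons, without either WT library.

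The ZEB2 -61.0 kb region, which fell with TWIST1 depletion, was also lower in untreated ALX1FV ALX4-: 4.32 and 4.35 log2 CPM against 6.01 and 5.63 in WT, -1.52 ± 0.19 (adjusted p = 3.47e-07), a call kept with each left-out library and with library size alone. PRRX1FV had 5.13 and 5.13, -0.70 ± 0.18 (0.0234), a call lost with library size alone (0.0965). The neighbour at -61.8 kb was lower in both (-1.78 ± 0.23 and -0.82 ± 0.22). ZEB2, with 53 of the 282 regions, held 12 of the 30 calls in ALX1FV ALX4-, 4 higher and 8 lower. Over all regions 10.3% were called in that comparison. The ZEB2 start was among the lower ones (3.48 and 3.1 against 4.20 and 4.47, -1.06 ± 0.24, 0.00217).

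CDH2, which TWIST1 depletion left without a call, differed between lines. Its start had 3.33 and 2.93 in ALX1FV ALX4- against 4.41 and 4.69 in WT (-1.44 ± 0.28, adjusted p = 0.000327) and 3.13 and 3.77 in PRRX1FV (-1.08 ± 0.27, 0.0177, and 0.0502 with library size alone). The region at -91.2 kb from CDH1, beside the CDH3 start, differed in 4 lines: it had 5.44 and 5.53 in WT, 4.31 and 4.56 in ALX1FV (-1.05 ± 0.22), 4.03 and 4.14 in ALX1FV ALX4- (-1.43 ± 0.22), 3.64 and 3.86 in MSX1FNV (-1.77 ± 0.23) and 2.95 and 3.86 in PRRX1FV (-2.03 ± 0.23). These comparisons share the 2 WT libraries. The ALX1FV call was lost without some single libraries (adjusted p up to 0.15). The CDH6 start was lower in ALX1FV ALX4- (-2.13 ± 0.52; -4.18 without replicate 1 of that line, -1.38 without replicate 2, where the adjusted p was 0.153, and lost also without WT replicate 2), as was VIM +47.4 kb (-1.74 ± 0.46), while SNAI1 +82.4 kb was higher there (1.29) and in MSX1FNV (1.13).

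The other calls against WT are given as log2 differences, each with an adjusted p under 0.05. In ALX1FV ALX4- ZEB2 was higher at +60.1 kb (2.16), +164 kb (2.34), +170 kb (0.96) and -76.3 kb (1.20), and lower at +2.98 kb (-0.71), +1.67 kb (-1.05), -3.29 kb (-0.95), -4.07 kb (-0.76) and +187 kb (-1.25). SNAI1 was higher there at +64.1 kb (1.26), +70.2 kb (0.76) and +92.8 kb (1.69), so the calls downstream of it were higher except at +6.47 kb (-0.45). Upstream of SNAI1, -94.3, -94.9 and -95.5 kb were lower in ALX1FV ALX4- (-0.66, -0.61 and -0.52) and in PRRX1FV (-0.78, -0.62 and -0.61), and the first 2 in MSX1FNV (-0.75 and -0.55); PRRX1FV was also lower at +6.47 kb (-0.51). SNAI2 +21.7 kb (-1.44) and CDH1 -36.1 kb (-1.98) were lower in ALX1FV ALX4-. CDH2 +1.2 kb was lower in ALX1FV ALX4- (-2.05) and PRRX1FV (-1.52), and CDH6 -60.2 kb in ALX1FV ALX4- (-1.92) and MSX1FNV (-1.41). CDH11 -98.0 kb was higher in ALX1FV ALX4- (1.27). The CDH3 start region (-92.3 kb) was lower in ALX1FV ALX4- (-1.06), MSX1FNV (-1.33) and PRRX1FV (-1.61), and CDH1 -68.8 kb was higher in ALX1FV (2.17). PRRX1FV was lower at the ZEB1 start (-0.55), and ZEB2 -28.1 kb had 0 and 0 counts in it against 14 and 8 in WT.

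Leaving out 1 library at a time kept the calls in ALX1FV ALX4- at ZEB2 -61.0, -61.8 and +170 kb, at CDH2 -0.284 and +1.2 kb, CDH6 -60.2 kb, SNAI1 -94.9 kb and CDH1 -91.2 kb, and those at CDH1 -91.2 kb in MSX1FNV and PRRX1FV. Each other call against WT was lost without at least 1 library. In ALX1FV ALX4- the value at ZEB2 -3.29 kb was -0.46 without WT replicate 1, and that at ZEB2 +187 kb was -2.27 without replicate 1 of the line and -0.70 without replicate 2.

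Total counts per H3K27ac library ranged from 5137169 to 9173063. Neural crest markers had highly acetylated start regions (TFAP2A, SOX9, PDGFRA and TWIST1 at percentiles 99 and 100), while that of the neuroectoderm gene SOX1 stood at percentile 6 and NANOG and POU5F1 had no region. SOX10 stood at 50. Nothing in the labels states that replicates came from separate differentiations, so p-values measure the spread between these samples, and 3 residual degrees of freedom stand behind each fit of 1 line. Fewer marked cells and less mark per cell cannot be told apart in bulk chromatin.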

How the data were processed

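H3K27ac, TWIST1, V5 and AP2a chromatin immunoprecipitation was measured in the samples described above. The authors deposited raw read counts per accessible (ATAC) region for H3K27ac and 1 peak list per library, each peak with a score, a fold enrichment ratio and -log10 p and q values, per the file contents. The submitters' processing notes name Bowtie2 2.4.1, SAMtools 1.10, MACS2 2.2.7.1 and deepTools 3.5.0; the read counter, peak thresholds and control inputs are not stated there or in the labels. Builds are hg38 and mm39 per the labels, with GENCODE 44 and M39. Counts were fitted line by line with edgeR 4.0.16 (quasi-likelihood test, TMM scaling, filterByExpr, Benjamini-Hochberg over all tested regions), all 3 times together, with the TWIST1FV and WT responses compared in 1 fit of 12 libraries and the 0 h lines in another. A spike-in count was not used, so a change of all regions together is not measured. DESeq2 1.42.0, library size alone, no filter, a joint fit of all 36 libraries, a replicate block, a 50-kb window and leaving out each library were the alternatives. Log2 CPM per library was computed with edgeR. Depth was 5137169 to 9173063 counts per library. Repeated intervals in a peak list were kept once, overlap meant at least 1 bp, and shares carry Wilson 95% intervals that cover counting error only. Scripts were tested on simulated data.

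Same-numbered replicates of ALX1FV, PRRX1FV and ALX1FV ALX4- share a clone label; their deviations from the time means correlated at 0.265 to 0.276, 0.024 to 0.030 and 0.028 to 0.056. In the other lines the replicates share only a number.

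The members and gene lists were chosen with earlier results of these data known. Regions were named by rule: each gene's most acetylated start region, the largest called change in each direction at 3 and 24 h, every called region of other comparisons and the strongest TWIST1 site; others are named as chosen after their values were seen. Regions beside a called region and those called in the test of the difference from WT were added after their values were seen.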

Additional observations from a re-analysis of the deposited data

Results flagged for a closer look

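The following H3K27ac regions responded differently to dTAGV-1 in TWIST1FV and in WT, by the edgeR test of the difference itself (adjusted p under 0.05 over all regions). Each value is the TWIST1FV log2 change minus the WT log2 change, with 2 libraries per line and time. At 3 h the values below 0 were -2.2 at CDH2 +103 kb, -1.71 at CDH1 +55.4 kb, -1.69 at ZEB2 -61.8 kb, -1.66 at ZEB2 -61.0 kb and -0.77 at the SNAI2 start, and those above 0 were 1.6 at the CDH3 start (CDH1 -92.3 kb) and 1.16 at ZEB2 +170 kb.

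At 24 h the values below 0 were -3.03 at ZEB2 -61.8 kb, -2.47 at ZEB2 -61.0 kb, -2.45 at ZEB1 +61.1 kb, -2.18 at ZEB2 -62.9 kb, -2.09 at VIM +47.4 kb, -1.67 at CDH1 +55.4 kb and -0.85 at the SNAI2 start. Those above 0 were 2.36 at CDH1 +74.7 kb, 2.35 at ZEB2 +14.4 kb, 1.67 at ZEB2 +10.2 kb, 1.61 at CDH1 -92.3 kb, 1.38 at ZEB2 +170 kb, 1.34 at CDH1 -94.5 kb, 0.91 at ZEB2 +9.35 kb and 0.85 at CDH1 -91.2 kb. The ZEB2 +14.4 kb region was not called in the TWIST1FV time course alone and rests on 9 to 34 counts per TWIST1FV library, and CDH2 +103 kb on 6 to 52. At CDH1 +74.7 kb the TWIST1FV change alone was 1.41, smaller than the difference of 2.36. Its call in the time course was lost without any 1 library and with DESeq2.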

How the results depend on the processing

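The TWIST1FV calls at CDH1 +55.4 kb and the CDH3 start (-92.3 kb) at both times, at ZEB2 -61.0 kb at 3 h and at ZEB2 -61.8 kb at 24 h held under each alternative run for them. Of 87 named-region results with an alternative value, 73 stayed on their side of the threshold with DESeq2, 66 with library size alone, 70 without the filter and 80 with the replicate block. With the block, called members numbered 40 in TWIST1FV at 24 h, 13 and 26 for the TWIST1FV minus WT response at 3 and 24 h, 1 in ALX1FV ALX4- at 24 h and 1 in ALX1FV against WT; the numbers mark a shared clone only in ALX1FV, PRRX1FV and ALX1FV ALX4-. In TWIST1FV and WT, where replicates share only a number, deviations correlated at 0.096 to 0.161 and 0.050 to 0.056, and in MSX1FNV at 0.080 to 0.100. Without the filter ALX1FV against WT had 1.

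The 50-kb window, which holds fewer regions, left 4 and 14 calls in TWIST1FV, 4 and 9 for the difference from WT, and 0, 15, 0 and 5 against WT in ALX1FV, ALX1FV ALX4-, MSX1FNV and PRRX1FV. Requiring 50% of both peaks lowered the RS4;11 share to 11.76%, and a -log10 q of at least 5 lowered the HEK293 mean to 29.67 peaks.

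Leaving out 1 library gave 3 to 7 and 12 to 19 calls in TWIST1FV, 3 to 8 and 8 to 13 for the difference from WT, 0 to 1 in ALX1FV ALX4- at 24 h, and, against WT, 0 to 2 in ALX1FV, 15 to 17 in ALX1FV ALX4-, 1 to 5 in MSX1FNV and 1 to 4 in PRRX1FV; all other counts were 0 to 0. The difference in peaks kept at 3 h was -76.53 to -75.32 percentage points, the ALX4-null minus WT share -15.42 to -8.294, and the HEK293 difference with ALX4 13.33 to 33.83 peaks.

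Start regions that were not called changed sign around 0. Without 1 library, SNAI1 gave -0.0003 at 3 h and -0.02 and -0.09 at 24 h, ZEB2 +2.98 kb -0.31 to 0.1 (0.004 among them) at 3 h and -0.05 to 0.17 at 24 h, VIM -0.28 to 0.18 (0.09) at 3 h and -0.22 to 0.18 (0.13) at 24 h, and CDH2 -0.12 to 0.17 at 24 h. With library size alone ZEB2 gave 0.02 at 3 h and VIM 0.07 and 0.12 at 3 and 24 h; VIM at 3 h gave 0.01 without the filter and 0.007 with DESeq2. The cause of these changes was not tested.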
